A study of Homo sapiens with 14 samples.

Results

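The response to Nutlin was measured in HCT116 cells from which the nuclear matrix protein SAF-A had been set up for removal. It is read from 4 of the study's 14 RNA-seq libraries. They are the 2 libraries labelled with 5-Ph-IAA and Nutlin and the 2 labelled with 5-Ph-IAA alone, chosen by those labels and not by any measured value. HCT116 is a human colon carcinoma cell line. All 4 libraries come from a derivative that expresses osTIR1(F74G), a plant-derived ubiquitin ligase adaptor, and a SAF-A protein joined to the mAID degron and the Halo tag. SAF-A is the product of the gene HNRNPU. In this design the auxin analogue 5-Ph-IAA brings the tagged protein to the adaptor, which leads to its degradation. The controls of the comparison therefore carry the degron and received 5-Ph-IAA as well. Nutlin blocks the contact between MDM2 and p53. The libraries carry a 3 h label that does not say which compound it times, no Nutlin dose is given, and neither the number of clones nor the separate culture of replicates is stated. P-values may therefore measure only the spread between these samples. A matching arm without 5-Ph-IAA, with 2 vehicle (DMSO) and 2 Nutlin libraries of the same derivative, also enters the 8-library fit described next.

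The 4 libraries held 13.03 M to 16.4 M expected counts (M is 1e6), the read counts that the authors' RSEM tables assign to each gene. The counts were fitted in a pair of ways. The 4-library fit holds only the compared libraries, and the 8-library fit adds the arm without 5-Ph-IAA and estimates 1 spread over all 4 groups. The biological coefficient of variation, the replicate spread beyond counting error, was 0.0529 within the 5-Ph-IAA pair and 0.0541 within the pair with Nutlin. It was 0.21 within the Nutlin pair without 5-Ph-IAA, which stood apart from the other pairs. With Nutlin, 622 of 16434 genes passed an adjusted p of 0.05 in the 4-library fit (3.78%), 333 of them raised (2.03%) and 289 lowered (1.76%). In the 8-library fit 67 of 17251 genes passed (0.388%), 59 raised (0.342%) and 8 lowered (0.0464%), and all 67 were among the 622 with the same direction. A fit without the Nutlin pair that stood apart called 426. Leaving a single library out of the 8 gave 424 and 429 calls without library 1 and library 2 of that pair, 37 without either vehicle library, 16 and 20 without the 5-Ph-IAA libraries, and 16 and 28 without the libraries with both compounds. The 4-library fit called 934 genes without 5-Ph-IAA library 2 and 637 to 713 without each of the others. Below, "rose" and "fell" refer to the 4-library fit, and "passed both fits" marks genes that also passed with 8 libraries. Not every such gene is marked, so a gene without this remark may also have passed with 8. Counts of list members are to be read beside the shares of all tested genes, 2.03% raised and 1.76% lowered. A Nutlin library is one with both compounds unless the arm without 5-Ph-IAA is named, and a left-out fit is a 4-library fit without 1 library unless 8 are named. In a left-out fit the other pair alone gives the spread, and in 3 of the 4 every gene was given the trended spread, so a call kept there says little and only lost calls are given. In 47.1% of the tested genes the 2 groups did not overlap, so that lack of overlap alone says little about a gene. An exact permutation test of 2 libraries against 2 cannot give a p under 0.333, and edgeR, which pools the spread over genes, was used instead.

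In unstressed cells p53 is held at a low level because MDM2 marks it for destruction, and MDM2 is itself a p53 target, which closes a feedback loop. Once p53 is released it activates genes that halt the cell cycle, such as CDKN1A, genes that favour cell death, such as BBC3, and genes of DNA repair. The integrated stress response is another program. Kinases that sense lack of amino acids, misfolded protein or other stress slow translation in general while favouring that of ATF4, a transcription factor that with its partners activates genes for amino acid uptake and synthesis, tRNA charging and, in its later phase, cell death. SAF-A binds RNA and chromatin and belongs to the nuclear matrix, the structure that the study's title connects with gene induction.

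HNRNPU mRNA, the transcript of the degron-tagged protein, was present in every library. It stood at 646 and 639 counts per 1e6 after normalisation (CPM) with 5-Ph-IAA alone and at 573 and 619 CPM with 5-Ph-IAA and Nutlin. The change, -0.10 ± 0.055 (log2 ± SE), did not pass the test (adjusted p = 0.347, edgeR). Without 5-Ph-IAA the levels were 640.0 and 634 CPM in vehicle and 505 and 572 CPM with Nutlin. The degron acts on protein, so these RNA levels do not check whether SAF-A was lost. The epithelial markers EPCAM, CDH1, KRT8, KRT18 and KRT19 were all expressed, and none passed the test of Nutlin. Of 20 colon epithelium genes, 12 reached 1 CPM, while the intestinal genes CDX1, CEACAM5, CEACAM6, TFF3, MUC2 and FABP1 were at 0 in all 4 libraries. The epithelial transcription factor ELF3 was the 1 gene of that list that rose (0.41 ± 0.071). Of 24 markers of other cell types 4 reached 1 CPM, and their summed level was 5.88 and 6.43 length-corrected transcripts per 1e6 (TPM) without Nutlin and 8.76 and 8.82 TPM with it. The defining markers COL1A2, DCN, PECAM1, CDH5, CD3E and CD3D were at 0 in all 4.

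CDKN1A, the inhibitor of cyclin-dependent kinases that carries out much of the p53 arrest, rose strongly. Its level was 205 and 205 CPM in the 5-Ph-IAA libraries and 467 and 427 CPM in the libraries with Nutlin. Both libraries with Nutlin stood far above both without it, a 2.18-fold rise (log2 1.13 ± 0.058, adjusted p = 2.02e-09) that passed both fits. MDM2, the target of the drug, was at 260.0 and 261 CPM and then at 394 and 382 CPM. It rose 1.49-fold (log2 0.58 ± 0.053, adjusted p = 3.4e-06), while in the 8-library fit its adjusted p was 0.0617. Of 13 measured regulators of p53, 3 rose and none fell, among them TP53INP1, a stress-induced cofactor of p53 (0.61 ± 0.097). Their median log2 change was 0.07, beside 0.00 over all tested genes. The inhibitor MDM4 (0.17 ± 0.064), the phosphatase PPM1D (0.11 ± 0.073), CCNG1 (-0.03 ± 0.064) and ZMAT3 (0.06 ± 0.089) did not pass. In bulk RNA, fewer cells that express a gene and less RNA per cell cannot be told apart, here and in all results below.

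**Figure D1:**
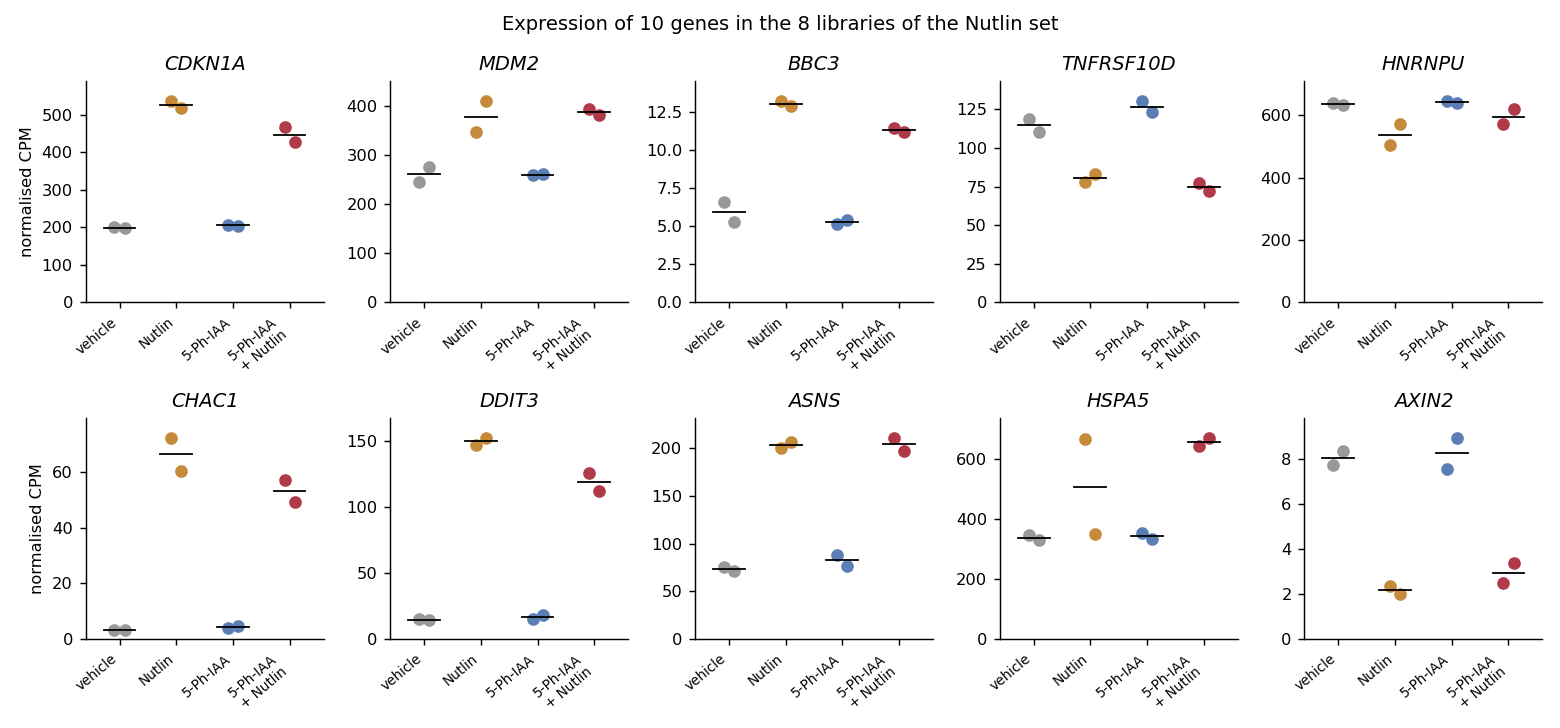
Level of 10 genes (CPM, linear axes from 0) in the 8 libraries of both arms, with 1 point per library and a bar at the mean of each group of 2. In the arm with 5-Ph-IAA the points of CDKN1A, MDM2, BBC3, CHAC1, DDIT3, ASNS and HSPA5 are higher with Nutlin in both libraries, those of TNFRSF10D and AXIN2 are lower, and those of HNRNPU are lower by a difference that did not pass the test. For HSPA5 the Nutlin pair without 5-Ph-IAA splits, at 669.5 and 349 CPM.

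Among the growth arrest targets, 6 of 11 measured genes rose and none fell, with a median of 0.48. Besides CDKN1A they were BTG2, an antiproliferative adaptor of mRNA decay, at 16.02 and 15.4 CPM without Nutlin and 35.7 and 32.7 CPM with it (1.12 ± 0.10), its relative BTG1 (0.48 ± 0.094), the DNA damage response genes GADD45A (0.99 ± 0.10) and GADD45B (0.65 ± 0.11), and the kinase PLK3 (0.998 ± 0.086). CDKN1A, BTG2, GADD45A and PLK3 passed both fits. Among 17 cell death targets 4 rose and 1 fell, with a median of 0.20. BBC3, which encodes the BCL2 antagonist PUMA, was at only 5.16 and 5.41 CPM and reached 11.4 and 11.1 CPM (2.14-fold, adjusted p = 0.0013). PMAIP1, which encodes NOXA, rose from 68.4 and 63.2 CPM to 114.5 and 101.5 CPM (0.71 ± 0.075). The death receptors FAS (0.48 ± 0.080) and TNFRSF10B (0.36 ± 0.062) rose by less, and BAX, the pore-forming death effector, gave 0.21 ± 0.12 and did not pass. TNFRSF10D is a TRAIL receptor that lacks a working death domain and so acts as a decoy. It was the member that fell, from 130.3 and 123 CPM to 77.1 and 72.3 CPM (log2 -0.76 ± 0.067, adjusted p = 1.93e-06), and it passed both fits.

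Of the 17 p53 targets in repair and metabolism, 3 rose and 1 fell, with a median of 0.10. SESN2, a stress-induced inhibitor of mTORC1 signalling, had the strongest change, from 20.4 and 18.7 CPM to 84.3 and 80.3 CPM (4.21-fold), and SESN1 rose by 0.51 ± 0.090. SESN2 is also a target of ATF4, so it does not report p53 alone. The DNA damage sensor XPC rose by 0.33 ± 0.076, a call lost without 5-Ph-IAA library 1 (0.27), and SCO2, a mitochondrial copper chaperone, fell (-0.51 ± 0.098). The ribonucleotide reductase subunit RRM2B (0.25 ± 0.067), FDXR (0.16 ± 0.086) and TIGAR (0.22 ± 0.11) did not pass. Of 35 other p53 targets 5 rose and 1 fell, with KLF4 (0.55 ± 0.11) and PHLDA3, an inhibitor of AKT (0.43 ± 0.094), among those that rose. KLF4 and PHLDA3 did not pass with DESeq2. Over these 5 lists together, 21 of 93 genes rose (22.6%) and 3 fell (3.23%), beside 2.03% and 1.76% of all tested genes, and the median was 0.10. A listed gene can have other inducers, as SESN2 does, so these shares do not report p53 alone. In the 8-library fit 7 of 95 rose and 1 fell.

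Among the regulators of the integrated stress response, more members rose than not. DDIT3 encodes CHOP, the transcription factor that ATF4 induces and that drives its later phase. It was at 15.3 and 18.3 CPM in the libraries without Nutlin and at 125.5 and 112 CPM with it, a 7.14-fold rise (log2 2.84 ± 0.094, adjusted p = 5.75e-12). ATF4 mRNA, already abundant at 416 and 396 CPM, reached 704 and 644 CPM (1.66-fold). For ATF3, a repressor induced by ATF4 and by p53, the values were 15.3 and 12.6 CPM and 63.6 and 59.7 CPM (4.40-fold). TRIB3, a pseudokinase that dampens the response, rose 2.62-fold. CEBPB (1.05 ± 0.14) and CEBPG (0.62 ± 0.066), partners of ATF4 in DNA binding, rose as well, as did the AP-1 family repressor JDP2 (1.60 ± 0.19). The rises extended to EIF2AK3, the kinase of the endoplasmic reticulum (ER) that starts the response (0.59 ± 0.084), and to PPP1R15A, the phosphatase subunit that ends it (0.53 ± 0.085). In all, 10 of 18 measured members of the list rose and none fell, with a median of 0.56. In the 8-library fit 8 members passed, among them DDIT3, ATF3, TRIB3, ATF4, CEBPG and JDP2.

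**Figure D2:**
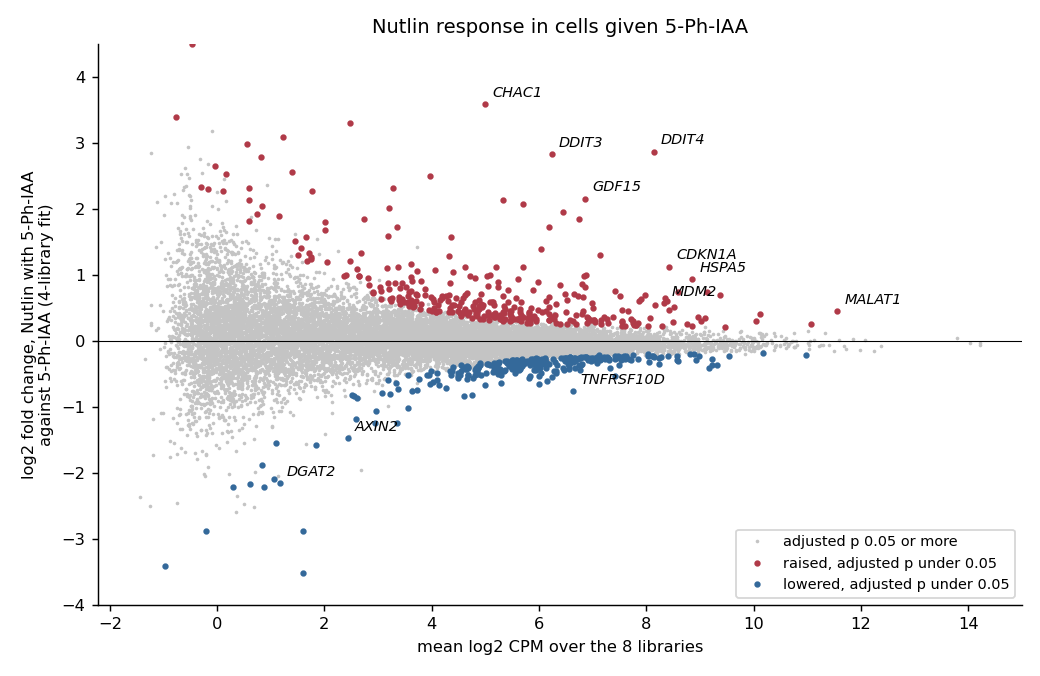
Log2 change with Nutlin in the 4-library fit (vertical axis) against mean level over the 8 libraries (log2 CPM, horizontal axis), with 1 point per tested gene and the called genes coloured by direction. The 6 genes outside the vertical range of -4 to 4.5 are not drawn. CHAC1, DDIT4 and DDIT3 are the highest of the labelled points, with log2 changes of 3.59, 2.87 and 2.84, and AXIN2 lies among the lowered genes at -1.48.

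CHAC1 had the largest rise of any gene reported here that was above 1 CPM in all 4 libraries. It encodes an enzyme that breaks down glutathione and is induced through ATF4 and CHOP. The gene (ENSG00000128965.13) lies at chr15:40952962-40956519 on the + strand in GENCODE 29 (GRCh38). Its level was 4.11 and 4.80 CPM without Nutlin and 57.3 and 49.2 CPM with it, 12.02-fold higher (log2 3.59 ± 0.13, adjusted p = 1.2e-11 with 4 libraries and 5.71e-06 with 8). Corrected for transcript length, CHAC1 went from 2.13 and 2.58 TPM to 30.63 and 29.01 TPM. CDKN1A, from 77.58 and 79.16 TPM to 178.6 and 177.7 TPM, remained the more abundant transcript per length although its fold change was smaller. CHAC1 was the only one of 15 measured genes of glutathione handling that passed the test, and the median of that list was -0.06.

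Sequences upstream of the start sites were examined because several of the raised genes carry well-known stress elements. The elements were thus chosen with raised genes in view, so their shares among raised genes and lists are descriptions and no test. The windows are the 250 bases before the RefSeq start (GRCh38.p14), written 5′ to 3′ along the gene. The C/EBP-ATF response element (CARE) was searched as TGATGNAA and the ER stress element (ERSE) as CCAAT followed after 9 bases by CCACG, on both strands, and 11051 of the 16434 tested genes had a window. The CARE letters were found in 153 of these windows (1.38%), in 11 of 231 windows of raised genes (4.76%) and in 1 of 216 of lowered genes (0.463%). Over all 35116 promoters of the table they were found in 3.14%. The ERSE letters were found in 14 windows of tested genes (0.127%), among them 3 of raised genes (1.3%), none of lowered genes and 7 of the 23 ER folding genes with a window (30.4%), beside 0.074% of all promoters. Windows of 6 raised genes are shown as illustrations with the match in capitals, 4 with CARE and 2 with ERSE. The other raised genes with CARE were ATF3, FUT1, GOT1, GPX8, KIAA0232, LURAP1L-AS1 and PLK3, and HSP90B1 was the other with ERSE. Of these, FUT1, GPX8, KIAA0232 and LURAP1L-AS1 are in none of the gene lists. In CHAC1 (chr15:40953221-40953470, + strand) the match lies 209 to 202 bases upstream of the start, in ASNS (chr7:97872409-97872658, - strand) 68 to 61, in HERPUD1 (chr16:56931892-56932141, + strand) 176 to 169 and in AARS1 (chr16:70289507-70289756, - strand) 187 to 180. In HSPA5 (chr9:125241344-125241593, - strand) it lies 66 to 48 bases upstream and in XBP1 (chr22:28800570-28800819, - strand) 52 to 34. The RefSeq starts differ from those of GENCODE 29: the CHAC1 window lies wholly inside the GENCODE gene, and the matches of CHAC1 and ASNS are downstream of the GENCODE start, while the matches of the other 4 are outside the GENCODE gene. In CHAC1, HERPUD1 and AARS1 the capitals show the reverse complement, since the match is on the opposite strand.
CHAC1: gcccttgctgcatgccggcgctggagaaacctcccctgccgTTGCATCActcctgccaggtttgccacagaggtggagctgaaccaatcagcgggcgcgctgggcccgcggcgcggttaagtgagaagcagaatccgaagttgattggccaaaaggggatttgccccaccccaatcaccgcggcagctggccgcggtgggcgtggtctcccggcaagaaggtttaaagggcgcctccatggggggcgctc
ASNS: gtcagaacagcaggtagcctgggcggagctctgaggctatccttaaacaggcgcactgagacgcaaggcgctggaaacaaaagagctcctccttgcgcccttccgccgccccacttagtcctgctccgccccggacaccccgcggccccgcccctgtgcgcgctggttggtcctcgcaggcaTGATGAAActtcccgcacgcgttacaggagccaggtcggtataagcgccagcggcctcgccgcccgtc
HERPUD1: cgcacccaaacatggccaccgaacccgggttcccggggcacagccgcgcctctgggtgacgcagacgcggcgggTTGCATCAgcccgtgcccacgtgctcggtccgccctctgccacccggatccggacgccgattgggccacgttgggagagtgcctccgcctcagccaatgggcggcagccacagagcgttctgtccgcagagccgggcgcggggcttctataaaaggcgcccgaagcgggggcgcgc
AARS1: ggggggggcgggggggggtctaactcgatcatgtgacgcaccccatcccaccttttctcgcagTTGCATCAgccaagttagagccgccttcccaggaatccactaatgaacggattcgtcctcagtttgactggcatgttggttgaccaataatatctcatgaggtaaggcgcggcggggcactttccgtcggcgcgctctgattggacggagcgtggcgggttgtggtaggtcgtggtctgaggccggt
HSPA5: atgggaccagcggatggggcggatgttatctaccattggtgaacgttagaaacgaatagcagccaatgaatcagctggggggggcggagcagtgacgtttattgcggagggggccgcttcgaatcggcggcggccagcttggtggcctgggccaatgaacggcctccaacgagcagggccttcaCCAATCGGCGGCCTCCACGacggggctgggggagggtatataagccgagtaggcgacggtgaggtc
XBP1: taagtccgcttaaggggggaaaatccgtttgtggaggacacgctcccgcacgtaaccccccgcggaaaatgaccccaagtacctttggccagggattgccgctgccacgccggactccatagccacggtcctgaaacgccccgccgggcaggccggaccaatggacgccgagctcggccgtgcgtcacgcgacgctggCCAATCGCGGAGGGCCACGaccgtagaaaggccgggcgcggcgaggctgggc
A match describes the letters of the window and not a bound site, and elements farther away or with other letters were not searched. The sterol element, ATCAC followed after 1 base by CCAC, was found in 10 windows of tested genes (0.0905%), of which SREBF2 was the 1 raised gene, and in 0.125% of all promoters. The p53 element was searched in a strict form, as RRRCWWGYYY repeated within a short distance. Here R is A or G, W is A or T and Y is C or T, and no other letters were allowed in the repeats. It was found in 5 windows of tested genes (0.0452%), none of them of a called gene, and in 0.0256% of all promoters. With so few matches, their absence from called genes says little. A window without a match lacks only the form that was searched.

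Amino acid transporters rose in 7 of 14 cases and none fell, with a median of 0.55. SLC7A11, the cystine transporter that feeds glutathione synthesis, went from 37.5 and 38.8 CPM to 152 and 143 CPM (3.87-fold, adjusted p = 1.2e-11). Its partner chain SLC3A2 rose 1.52-fold, the large neutral amino acid transporter SLC7A5 1.53-fold, and the glutamine transporter SLC38A2 1.61-fold. SLC1A4, a carrier of alanine and serine, rose from 1.96 and 2.97 CPM to 8.13 and 9.32 CPM, a low level at which few reads carry the change. SLC7A11-AS1 also rose (3.30 ± 0.25), but how the authors counted strand is not stated, so its reads cannot be told apart from those of SLC7A11. Among 17 genes of amino acid and one-carbon synthesis 6 rose and 1 fell, with a median of 0.15. ASNS, the asparagine synthetase whose CARE match is shown above, was at 88.1 and 76.8 CPM without Nutlin and at 211 and 198 CPM with it (2.48-fold, adjusted p = 3.67e-09). The serine pathway enzymes PSAT1 (0.98 ± 0.065) and PHGDH (0.60 ± 0.076), the alanine aminotransferase GPT2 (0.81 ± 0.085) and the mitochondrial folate enzyme MTHFD2 (0.36 ± 0.053) rose. GOT1 rose by 0.25 ± 0.062, a call lost without 5-Ph-IAA library 2 (0.20) and without Nutlin library 1 (0.23). SHMT2, another mitochondrial enzyme of the serine pathway, gave 0.08 ± 0.056 and did not pass.

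The enzymes that charge tRNAs were counted by compartment. Of 20 cytosolic tRNA synthetases 8 rose and none fell, with a median of 0.16, whereas of 17 mitochondrial ones none rose and 1, MARS2, fell (-0.48 ± 0.086), with a median of -0.03. CARS1, for cysteine, went from 58.01 and 58.6 CPM to 104 and 106 CPM and had the largest rise (0.85 ± 0.067). AARS1, for alanine (0.67 ± 0.057), GARS1, for glycine (0.63 ± 0.056), YARS1, for tyrosine (0.46 ± 0.057), MARS1, for methionine (0.34 ± 0.055), and TARS1, for threonine (0.28 ± 0.057), followed. The difference between the lists was not tested. Of 19 genes that restrain mTORC1, the growth kinase that amino acids activate, 3 rose and none fell, with a median of -0.07. They were DDIT4 and the sestrins SESN2 and SESN1. DDIT4, also called REDD1, was at 66.2 and 57.4 CPM and reached 473 and 430.1 CPM (7.30-fold, adjusted p = 2.95e-13), the lowest adjusted p among the genes named here. Per length it stood at 219.8 and 219.9 TPM with Nutlin, above CDKN1A.

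Genes of protein folding in the ER rose in 8 of 23 cases and none fell, with a median of 0.20. HERPUD1, a component of ER-associated degradation, went from 45.4 and 47.6 CPM to 167 and 166 CPM (3.59-fold, adjusted p = 1.2e-11) and passed both fits. HSPA5, the major chaperone BiP, was at 354.5 and 335 CPM without Nutlin and at 645 and 672 CPM with it. Its libraries were far apart between the groups and close within them, and it rose 1.91-fold (adjusted p = 1.1e-08). With 8 libraries its adjusted p was 0.207, beside Nutlin libraries of 669.5 and 349 CPM in the arm without 5-Ph-IAA. XBP1, the transcription factor of the unfolded protein response, rose by 0.71 ± 0.068 and the cochaperone DNAJB9 by 1.29 ± 0.13, and both passed both fits. The counts do not separate spliced from unspliced XBP1. DNAJB11 (0.36 ± 0.070) and the chaperone HSP90B1 (0.30 ± 0.053) rose less. ERN1, the sensor IRE1, rose by 0.59 ± 0.13, but the call was lost without 5-Ph-IAA library 1 (0.42).

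Of 9 secreted factors linked to stress, 5 rose and none fell, with a median of 0.81. GDF15, a circulating hormone of cell stress that ATF4, CHOP and p53 can each induce, went from 38.98 and 38.2 CPM to 178 and 166 CPM (4.46-fold, adjusted p = 5.75e-12). STC2, a glycoprotein of calcium and stress signalling, rose 3.30-fold, the angiogenic factor VEGFA 2.18-fold and the EGF receptor ligand AREG 1.75-fold. ADM2 was below 1 CPM without Nutlin, at 0.430 and 0.457 CPM, and at 3.19 and 4.42 CPM with it, so its fold change rests on few reads. ULBP1, a ligand of the immune receptor NKG2D, rose from 3.87 and 3.96 CPM to 14.3 and 17.4 CPM. TSC22D3, the leucine zipper protein GILZ, rose from 4.42 and 4.65 CPM to 25.97 and 25.2 CPM and was the only one of 4 measured TSC22D genes to pass. The lists of stress factors, amino acids, glutathione, cytosolic tRNA synthetases, mTORC1, the ER and secreted proteins, 8 in all, were also counted together. Of their 135 genes 48 rose (35.6%) and 1 fell (0.741%), beside 2.03% and 1.76% of all tested genes, with a median of 0.15. These lists and those of p53 targets were chosen with earlier results of these data known, so their shares are descriptions and no test. In the 8-library fit 27 of 135 rose and none fell. Of the 67 genes called with 8 libraries, 15 passed in all 8 fits with a library left out. In each of those a group of 1 library takes its spread from the rest. Besides SLC7A11-AS1 these were ASNS, ATF3, CDKN1A, CHAC1, DDIT3, DDIT4, GDF15, HERPUD1, SESN2, SLC7A11, STC2, TRIB3, TSC22D3 and VEGFA.

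**Figure D3:**
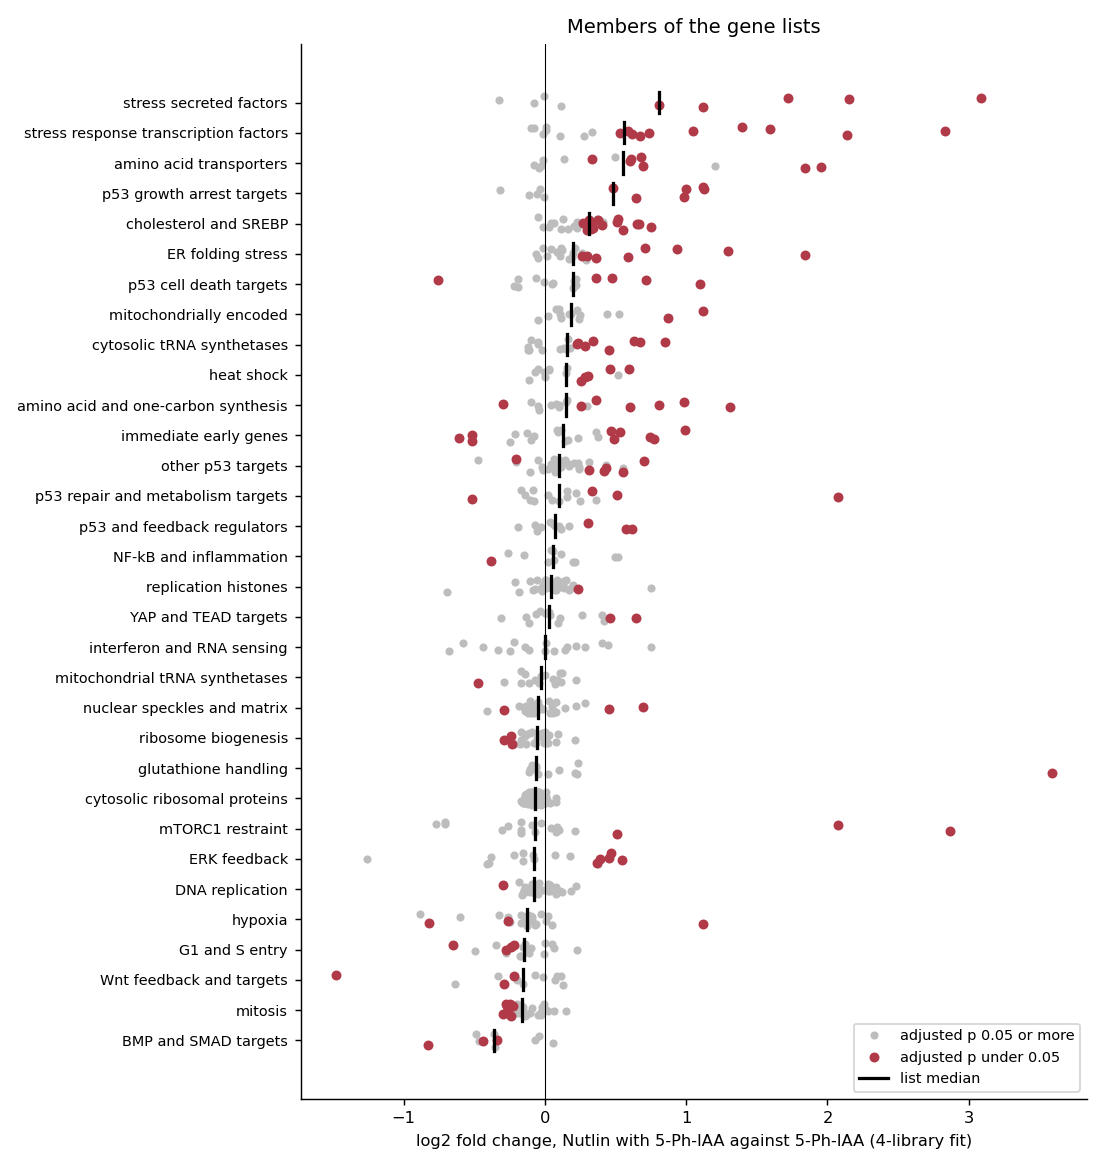
Log2 change with Nutlin in the 4-library fit for the measured members of the lists other than the TSC22D family and the cell type markers, with 1 point per gene, called genes in red, and a tick at the median of the list. The secreted factors have a median of 0.81, the stress transcription factors 0.56 and the amino acid transporters 0.55, while the mitotic genes lie at -0.16 and the ribosomal proteins at -0.07.

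Genes of cholesterol synthesis and uptake, which the SREBP transcription factors control, rose in 15 of 31 cases and none fell, with a median of 0.31. INSIG1, the sterol-regulated retention factor of the SREBP complex, was at 90.3 and 87.3 CPM without Nutlin and at 151 and 130.1 CPM with it (1.58-fold, adjusted p = 2.68e-05), and the groups did not overlap. The early pathway enzyme HMGCS1 rose by 0.55 ± 0.071, the sterol carrier STARD4 by 0.65 ± 0.087, and the fatty acid enzymes FASN and SCD by 0.51 ± 0.064 and 0.41 ± 0.052. HMGCS1 passed both fits, with an adjusted p of 0.05 in the 8-library fit. Of the 15, 6 lost the call in at least 1 left-out fit.

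Lowered genes moved less: the median log2 change of the 289 was -0.35, beside 0.57 for the 333 raised genes, and 20 fell and 67 rose at least 2-fold. AXIN2, a feedback inhibitor and standard readout of Wnt signalling, was at 7.55 and 8.92 CPM without Nutlin and at 2.47 and 3.39 CPM with it. Both libraries with Nutlin were below both without it, and the fall of -1.48 ± 0.23 (log2, adjusted p = 0.00134) passed both fits. Of 13 Wnt targets and feedback genes 3 fell and none rose, with a median of -0.16, the others being MYC (-0.29 ± 0.058) and CCND1, which encodes cyclin D1 (-0.22 ± 0.051). The CCND1 call was lost without Nutlin library 1 (-0.20). Of 10 BMP and SMAD targets 3 fell, with a median of -0.36. MSX1, a homeobox gene induced by BMP, went from 34.2 and 35.9 CPM to 19.4 and 20.1 CPM (-0.82 ± 0.093) and passed both fits. The ligand BMP4 fell by -0.34 ± 0.085, a call lost without 5-Ph-IAA library 2 (-0.31) and without Nutlin library 1 (-0.25), and ID2 fell by -0.44 ± 0.097, a call lost without Nutlin library 2 (-0.26). FASTKD5, which processes mitochondrial RNA, also fell in both fits (-0.64 ± 0.082).

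Genes of the cell cycle that passed fell, by small amounts except CDC25A. Of 20 genes of G1 and S phase entry 4 fell (20%, beside 1.76% of all tested genes) and none rose, with a median of -0.15, and 3 of the 4 (CCND1, CCNE1 and SKP2) lost the call in at least 1 left-out fit. CDC25A, the phosphatase that activates CDK2, went from 81.5 and 78.8 CPM to 50.96 and 50.9 CPM (-0.65 ± 0.071, adjusted p = 2.15e-05) and was the 1 member that passed both fits. Among 34 mitotic genes 8 fell (23.5%), none rose and the median was -0.16. KIF20A, a kinesin of cytokinesis, fell by -0.26 ± 0.056, and the other 7 lost the call in at least 1 left-out fit. AURKA fell by -0.30 ± 0.067, a call lost without 5-Ph-IAA library 1 (-0.21). Of 34 DNA replication genes 1 fell (2.94%, near the share of all genes), FEN1 (-0.29 ± 0.061), whose call was lost without Nutlin library 1 (-0.25). E2F1, of the list of G1 and S phase entry, gave -0.12 ± 0.082 and did not pass. Of 30 ribosome biogenesis genes 3 fell, among them MYC. Of 76 cytosolic ribosomal protein genes none passed with edgeR, 0 with DESeq2 and 12 at an unadjusted p under 0.05, with a median of -0.07.

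Immediate early genes, which cells switch on within minutes of a signal, gave calls in both directions. Of 22 measured, 6 rose and 3 fell, with a median of 0.13. Among those that fell FOSB lost the call without 5-Ph-IAA library 2 (-0.46) and without Nutlin library 1 (-0.40). MAFK lost it without 5-Ph-IAA library 2 (-0.37) and Nutlin library 2 (-0.41), and the other gene that fell was FOS. Among those that rose JUND lost it without 5-Ph-IAA library 1 (0.42) and Nutlin library 1 (0.34). JUN went from 42.1 and 41.4 CPM to 71.7 and 70.4 CPM (1.70-fold) and passed both fits, and EGR1 from 17.2 and 19.1 CPM to 38.5 and 33.4 CPM (1.99-fold). FOS, which pairs with JUN in AP-1, went the other way, from 73.8 and 77.6 CPM to 50.7 and 48.2 CPM (-0.61 ± 0.073). Of 17 genes of ERK feedback 5 rose and none fell, with a median of -0.08, so most members lay at or below 0. ERRFI1, a feedback inhibitor of the EGF receptor, was among those that rose (0.54 ± 0.058). Of 15 heat shock genes 5 rose, among them DNAJB4 (0.59 ± 0.086), DNAJB1 (0.46 ± 0.057) and HSPH1 (0.28 ± 0.057), and the other 2 lost the call in at least 1 left-out fit, while the abundant HSPA8 gave -0.07 ± 0.050 and did not pass.

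Of 29 genes of nuclear speckles and the nuclear matrix 2 rose (6.9%) and 1 fell (3.45%), with a median of -0.05. Over all tested genes the shares were 2.03% and 1.76%, and counts this small say little about the list. NEAT1, the long noncoding RNA on which paraspeckles form, was at 196 and 234 CPM without Nutlin and at 327 and 366 CPM with it (0.70 ± 0.075). MALAT1, a long noncoding RNA enriched in speckles, went from 2663 and 2983 CPM to 3805 and 3907 CPM (0.45 ± 0.057), and the splicing factor SRSF2 fell by -0.29 ± 0.052. Neither RNA passed the 8-library fit, with adjusted p of 0.418 and 0.565, beside unequal Nutlin libraries without 5-Ph-IAA at 317 and 179 CPM for NEAT1 and 3173 and 1977 CPM for MALAT1. The mitochondrial ribosomal RNAs MT-RNR2 (1.12 ± 0.091) and MT-RNR1 (0.87 ± 0.15) were the 2 of 15 mitochondrially encoded genes that rose, with a list median of 0.18. These libraries are depleted of ribosomal RNA, and MT-RNR2 stood at 29.4 and 28.96 CPM and 57.9 and 68.5 CPM, but at 48.4 and 19.03 CPM and 29.4 and 9.32 CPM in the other arm. The share of mitochondrial counts was 0.297% and 0.310% without Nutlin and 0.330% and 0.344% with it.

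The arm without 5-Ph-IAA shares no library with the 4 compared here and gives the response of cells in which SAF-A was not targeted. Of the 333 genes raised with 5-Ph-IAA, 294 had a positive change without it (88.3%), beside 49.4% of all tested genes, and of the 289 lowered genes 261 had a negative one (90.3%). The raised genes had a median of 0.57 with 5-Ph-IAA and 0.41 without it, and the lowered genes -0.35 and -0.26. They were chosen in the first arm, so their smaller median in the second is no test of a difference. Without 5-Ph-IAA 80 genes passed in the 8-library fit (0.464%), 68 raised (0.394%) and 12 lowered (0.0696%). The same fit called 67 with 5-Ph-IAA, 59 raised and 8 lowered. Of the 68 raised without 5-Ph-IAA, 63 (92.6%) were among the 333 of the 4-library fit (18.9% of those). Of the 12 lowered, 10 (83.3%) were among the 289 of that fit (3.46%). These overlaps set calls of unlike fits side by side, so they do not compare the breadth of the responses. In both arms CDKN1A, CHAC1 and DDIT3 rose. CDKN1A reached 537 and 519 CPM with Nutlin alone, from 200.1 and 197 CPM in vehicle, and its log2 change was 1.41 ± 0.087 without 5-Ph-IAA and 1.12 ± 0.087 with it. For CHAC1 the changes were 4.35 ± 0.17 without and 3.58 ± 0.16 with 5-Ph-IAA, and for DDIT3 3.34 ± 0.12 and 2.83 ± 0.12, all in the 8-library fit.

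The difference between the arms was tested as an interaction in the 8-library fit, and no gene passed with edgeR (0%). At an unadjusted p under 0.05 there were 623 genes, and DESeq2 called 1, an identifier without a symbol. The interaction was -0.77 ± 0.24 (log2 ± SE) for CHAC1, -0.51 ± 0.16 for DDIT3, -0.29 ± 0.12 for CDKN1A and 0.03 ± 0.15 for MDM2, where a negative value means a smaller rise with 5-Ph-IAA. All 4 had adjusted p from 0.989 to 0.997. A p above the threshold does not show that the responses were alike. The count of calls rests on the Nutlin pair without 5-Ph-IAA: without its library 1 the interaction called 1035 genes, 733 higher and 302 lower with 5-Ph-IAA, and without its library 2 it called 5.

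**Figure D4:**
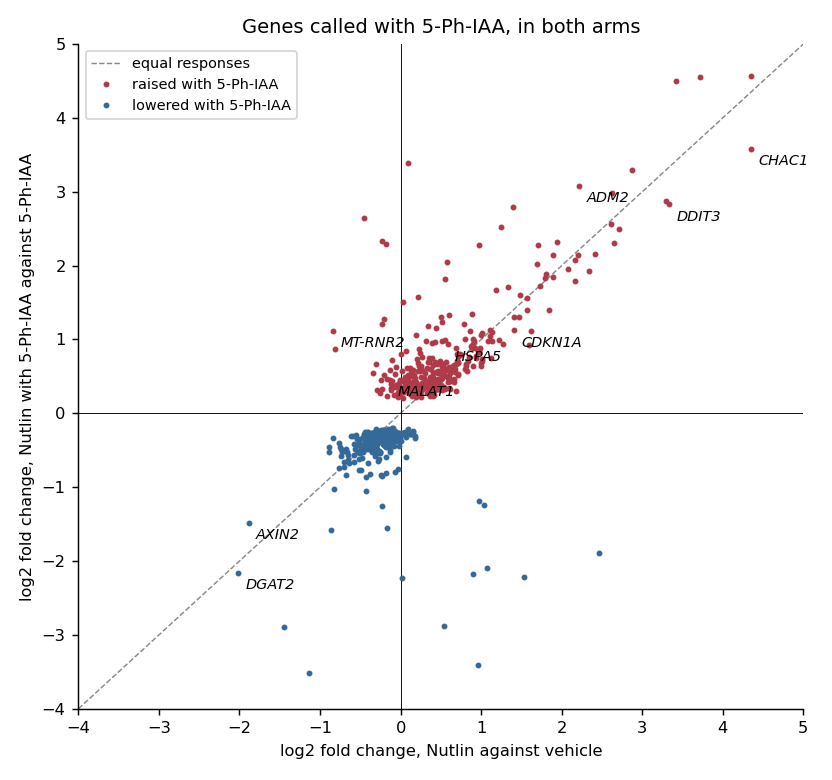
Log2 change with Nutlin with 5-Ph-IAA (vertical axis) against that without it (horizontal axis) in the 8-library fit, with 1 point per gene called in the 4-library fit and a line of equal change. The 4 genes outside the axes of -4 to 5 are not drawn. CHAC1 and DDIT3 lie high on both axes and below the line, and no gene's distance from the line passed the interaction test.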

How the data were processed

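RNA-seq was analysed from 8 libraries of a set with 4 groups of 2 (vehicle, Nutlin, 5-Ph-IAA, and 5-Ph-IAA with Nutlin), out of 14 in the series. The authors' deposited gene tables hold RSEM expected counts and TPM for 78686 identifiers, per the file headers. The submitters' processing notes list the tools STAR 2.7.10b, DESeq2 1.48.1 and RSEM (no version) and the genome hg38 (GRCh38), with no role for each. The annotation release and the strand setting of the counting are not given in the sources used here. Symbols were found for 61463 identifiers (78.1%) and GENCODE 29 positions for 57288 (72.8%).

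Rounded expected counts were tested with edgeR 4.0.16 in R 4.3.3, with TMM factors, filterByExpr (minimum count 10, minimum total 15), 1 coefficient per group and two-sided quasi-likelihood F tests. P-values were adjusted by Benjamini-Hochberg over all tested genes, and called under 0.05. Standard errors were taken as the absolute log2 change over the root of the F statistic. CPM values are those after TMM in the 8-library fit, and TPM values are as deposited. The residual degrees of freedom were 4 with 8 libraries and 2 with 4. Counting error covers neither PCR copies nor variation between cultures, and expected counts divide reads between similar genes. A test of the procedure on simulated data gave all groups the same spread. It does not cover the unequal spread of the pairs here.

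The members and the 35 gene lists were chosen with earlier results of these data known. Named genes are HNRNPU, MDM2 and CDKN1A, the up to 15 raised and 15 lowered with the largest change in each fit (with a symbol, non-overlapping groups and a mean log2 CPM at or above 1), up to 6 called members per list, or its 2 most expressed, and 5 by interaction. Named outside that rule, after their values were seen, are BAX, CCNG1, CEBPB, E2F1, EIF2AK3, ERN1, FDXR, FOSB, GOT1, HSPA8, JUND, MAFK, MDM4, PPM1D, PPP1R15A, RRM2B, SHMT2, TIGAR and ZMAT3. Genes named only as cell type markers, for a promoter match or in the families at the end can also lie outside it. Some genes that the rule picks are not reported here. Alternatives were RLE size factors, the Wald test of DESeq2 1.42.0, all 14 or only 6 libraries, a block for replicate number, no filter on low counts, and each library left out. Promoter windows came from the RefSeq table of GRCh38.p14.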

Additional observations from a re-analysis of the deposited data

How the results depend on the processing

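The count of 67 genes in the 8-library fit moved to 426 without the Nutlin pair of the other arm, 270 with no low-count filter, 103 with DESeq2 and 622 with only the compared libraries, and ranged from 16 to 429 with 1 library left out. RLE size factors gave 66 and all 14 libraries 81. The 622 genes of the 4-library fit became 939 with no low-count filter and 381 with DESeq2, and ranged from 637 to 934 with 1 library left out, while RLE size factors gave 619. Of the 622, 285 passed in all 4 such fits. In 3 of those and in both unfiltered fits edgeR gave every gene the trended spread, so their calls say little about stability. The interaction, 0 genes, called 57 with no filter, 1 with DESeq2 and from 0 to 1035 with 1 library left out. With the replicate number as a block, 45 genes passed with 8 libraries, 973 with 4 and 0 for the interaction. The numbers are labels only, since deviations of same-numbered libraries correlated from -0.0888 to 0.047, at -0.00661 between the compared groups. Of 126 named genes called with 4 libraries, none changed direction and 15 lost the call with DESeq2: BLOC1S5-TXNDC5, BMP4, CCN1, CCNE1, CMBL, EGLN3, GNRH1, HSPA1B, KCNJ12, KLF4, LFNG, PHLDA3, SKP2, SLC2A3P1 and XPC. With 13.03 M to 16.4 M counts, changes of genes near 1 CPM rest on few reads.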

Other observations

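The following families were chosen after their values were seen, so their counts are descriptions. Of 10 measured alpha and beta tubulins, the subunits of microtubules, 7 fell with Nutlin in the 4-library fit, beside 1.76% of all tested genes. None rose, and the median log2 change was -0.29. TUBA1A (0.09), TUBB4A (-0.01) and TUBB2B (-0.48) did not pass. The summed level of all 10 was 3897 and 3919 CPM with 5-Ph-IAA alone and 3285 and 3165 CPM with Nutlin, so the groups did not overlap. TUBB4B went from 646 and 634 CPM to 479.5 and 482.5 CPM (-0.41 ± 0.051) and TUBA1C from 701 and 697 CPM to 544.5 and 535 CPM (-0.37 ± 0.051). Of the 7, 4 lost the call in at least 1 fit of 3 of the 4 libraries. None of the tubulins passed the 8-library fit. Without 5-Ph-IAA the summed level was 3894 and 3772 CPM in vehicle and 3569 and 4206 CPM with Nutlin, which overlap, and the median was -0.09. The difference between the arms was not tested for the family.

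Metallothioneins, small proteins that bind zinc and copper, rose in 3 of 4 measured cases, beside 2.03% of all tested genes, and those 3 passed both fits. MT2A went from 78.1 and 75.4 CPM to 161.1 and 146 CPM (adjusted p = 7.43e-08, edgeR, 4 libraries), MT1X rose by 0.94 ± 0.084 and MT1E by 0.75 ± 0.060. Summed over the family the level was 375 and 366 CPM without Nutlin and 687 and 619 CPM with it. In the arm without 5-Ph-IAA the summed level went from 389 and 375 CPM to 812 and 809 CPM.

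FAM156A and FAM156B are near-identical copies, so their division of reads is uncertain. FAM156A fell by 1.02 on the log2 scale and FAM156B rose by 1.08, while their summed level was 26.3 and 29.2 CPM without Nutlin and 26.2 and 30.7 CPM with it.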
